A study of Mus musculus with 36 samples.

Results

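Slc15a2 (ENSMUSG00000022899) encodes PEPT2, a transporter that carries short peptides into cells together with protons. The annotation places a non-coding gene without a symbol in the count table, ENSMUSG00000120777, inside it. Both were followed through 12 groups of mouse CD4+ T cells, as 2 of the 56748 genes measured by RNA-seq. They had been selected on their measured levels, because Slc15a2 was almost silent in wild-type (WT) conventional T cells (Tconv) of 1 mouse line after grafting, while naive cells and HP1α-deficient Tconv of that line expressed it. Comparisons that include grafted cells of that line are therefore given as a description, and tests are reported for the remaining ones. Naive cells entered the choice by their level and not by the difference between genotypes.

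Members of the solute carrier 15 family move di- and tripeptides, histidine and peptide-like drugs across membranes, driven by a proton gradient. PEPT1, encoded by Slc15a1, acts mainly in the gut, PEPT2 in kidney, lung and brain, and the products of Slc15a3 and Slc15a4 in lysosomes of immune cells. Family members can deliver bacterial cell wall peptides to the sensors NOD1 and NOD2, and SLC15A4 holds the adaptor TASL, which recruits the transcription factor IRF5 downstream of TLR7 and TLR9.

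The mice were on a mixed 129/Sv and C57BL/6 background and 6 to 12 weeks old. In the HP1a line, the floxed gene for HP1α (Cbx5) had been excised in the germ line with CMV-cre, and knock-out (KO) mice were compared with WT littermates. In the HP1g line, the floxed gene for HP1γ (Cbx3) was deleted with Cd4-cre, that is, in T lineage cells, and littermates without cre served as WT. HP1 proteins bind methylated histone H3 in heterochromatin, and the study asked how their loss changes T cells and their control by regulatory T cells (Treg). Naive cells were splenic CD62L+ CD44-low CD4+ T cells. Tconv were such cells 3 weeks after transfer into irradiated hosts, either C57BL/6 J or CD45.1+ B6 mice, with syngeneic and semi-allogeneic marrow. They were sorted as Vβ6+ cells, which the study calls donor-specific because they recognize a superantigen of the semi-allogeneic marrow donor. TconvTreg cells came from hosts that had also received expanded WT Treg. Each group held 3 libraries, except HP1g KO TconvTreg, in which replicate 3 was left out for its read quality. The sample descriptions number naive and grafted libraries as separate sets within each line, so that grafting and library set cannot be told apart.

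The 35 libraries held 37029477 to 63042165 estimated counts each, so that 3 counts corresponded to 0.0451 to 0.0819 CPM, the count per 1000000 counts of a library after scaling. Cbx5 was lower in each HP1a KO library than in any WT library of its condition (9.20 to 12.3 against 18.5 to 25 CPM in naive cells), and Cbx3 likewise in the HP1g line (64.5 to 80.8 against 107 to 199 CPM in naive cells). All 6 CD4 T cell markers examined exceeded 1 CPM in every group, with summed levels of 5135 to 8176 CPM.

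In the GRCm39 genome, Slc15a2 lies on the minus strand of chromosome 16, from 36570475 to 36605334. Its canonical transcript has 22 exons and 4065 bases. ENSMUSG00000120777 lies on the same strand, from 36585467 to 36590580, 14.8 kb downstream of the Slc15a2 start site. It has 2 exons and 2019 bases, and sits entirely in intron 7 of Slc15a2, which is 9676 bases long. The genes share 0 exonic bases. Of 8 protein-coding Slc15a2 transcripts in the annotation, 3 end before they reach the non-coding gene. As the non-coding gene lies in an intron and on the same strand, unspliced Slc15a2 RNA and the non-coding transcript cannot be told apart over its exons.

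The sequence of both genes differed in how well reads can be placed. Of the 1989 windows of 31 bases in the non-coding transcript, 1926 (96.8%) also occur in transcripts of other genes, and 82.9% occur in those of 181 genes of the count table. Its sequence had 202 further matches of at least 500 bases and 95% identity on 20 chromosomes. None of the 4035 windows of the Slc15a2 transcript occurs in another gene. The count of Slc15a2 was whole in 35 of 35 libraries (within 0.01), while that of ENSMUSG00000120777 was whole in 0 of 35. The count of the non-coding gene therefore rests on how the quantification divided shared reads.

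**Figure D1:**
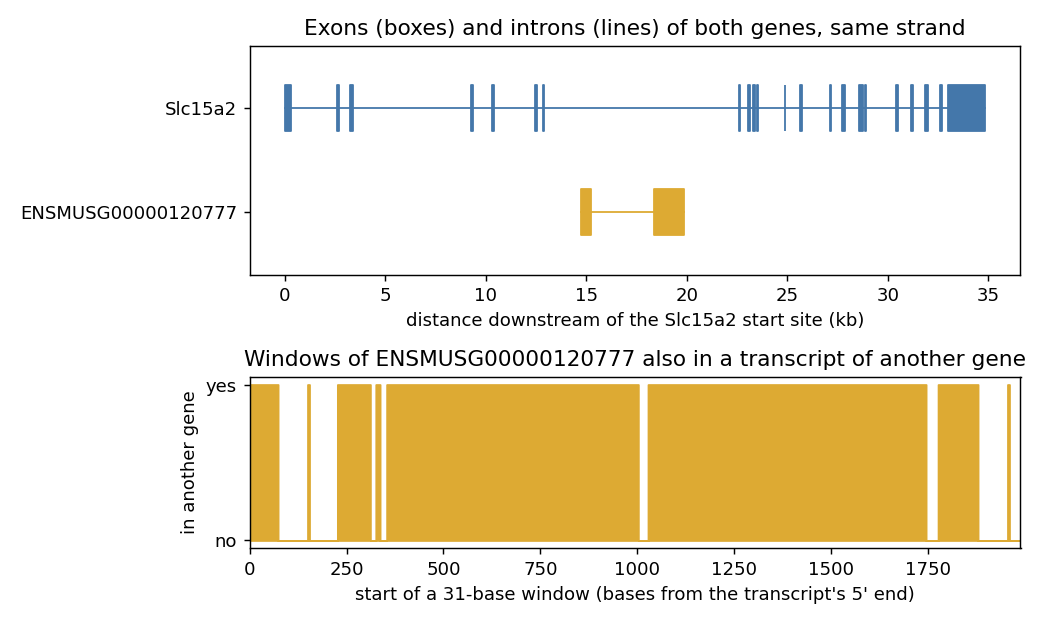
Upper panel, exons (boxes) and introns (lines) of both genes by distance from the Slc15a2 start site in kb; the non-coding gene lies in intron 7. Lower panel, position of each 31-base window along the non-coding transcript (bases from its 5' end). It is filled where the window also occurs in a transcript of another gene of the count table, which holds for 82.9% of windows.

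As the level of Slc15a2 fell to a few counts in some libraries, the 250 bases upstream of its start site are shown (GRCm39, chr16:36605332-36605581, minus strand, CpG dinucleotides in capitals).

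Slc15a2 promoter: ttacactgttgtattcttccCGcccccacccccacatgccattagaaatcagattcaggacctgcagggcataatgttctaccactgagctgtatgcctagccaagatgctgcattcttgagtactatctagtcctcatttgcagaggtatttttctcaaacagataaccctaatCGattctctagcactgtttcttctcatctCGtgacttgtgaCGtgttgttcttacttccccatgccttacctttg

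This stretch holds 4 CpG dinucleotides. The median of the 21770 protein-coding promoters of this length was 8, and 36.4% of them held 4 or fewer. On either strand it contains 1 GC box (GGGCGG), which begins 231 bases upstream of the start, overlaps the first of the CpGs and occurs in 36.3% of promoters. It contains no match to a TATA box (TATAAA, in 11.9% of promoters), a CCAAT box (CCAAT, 36.5%), or the AP-1 (TGANTCA, 6.2%), RUNX (TGTGGT, 13%) and TCF/LEF (CTTTGA, 14.1%) motifs.

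Slc15a2 was clearly expressed in most libraries and all but absent in some. At a limit of 100 counts, set after the values were seen, 26 libraries lay above with 3.74 to 17.3 CPM, and 9 lay below with at most 1.10 CPM. All 9 were WT libraries, out of 18 WT and 17 KO libraries in use, while the left-out KO library also lay below the limit, with 22 counts. They comprised the 6 grafted WT libraries of the HP1a line, which the choice of the gene used in part, and 1 WT library in each condition of the HP1g line. The highest count among the 9 was 51 and the lowest among the 26 was 170. ENSMUSG00000120777 ranged from 7.57 to 44.7 CPM over the 35 libraries and was present in each. In the 9 libraries with little Slc15a2, it still measured 7.57 to 27.1 CPM. Per kb of transcript, its level exceeded that of Slc15a2 in 35 of 35 libraries.

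**Figure D2:**
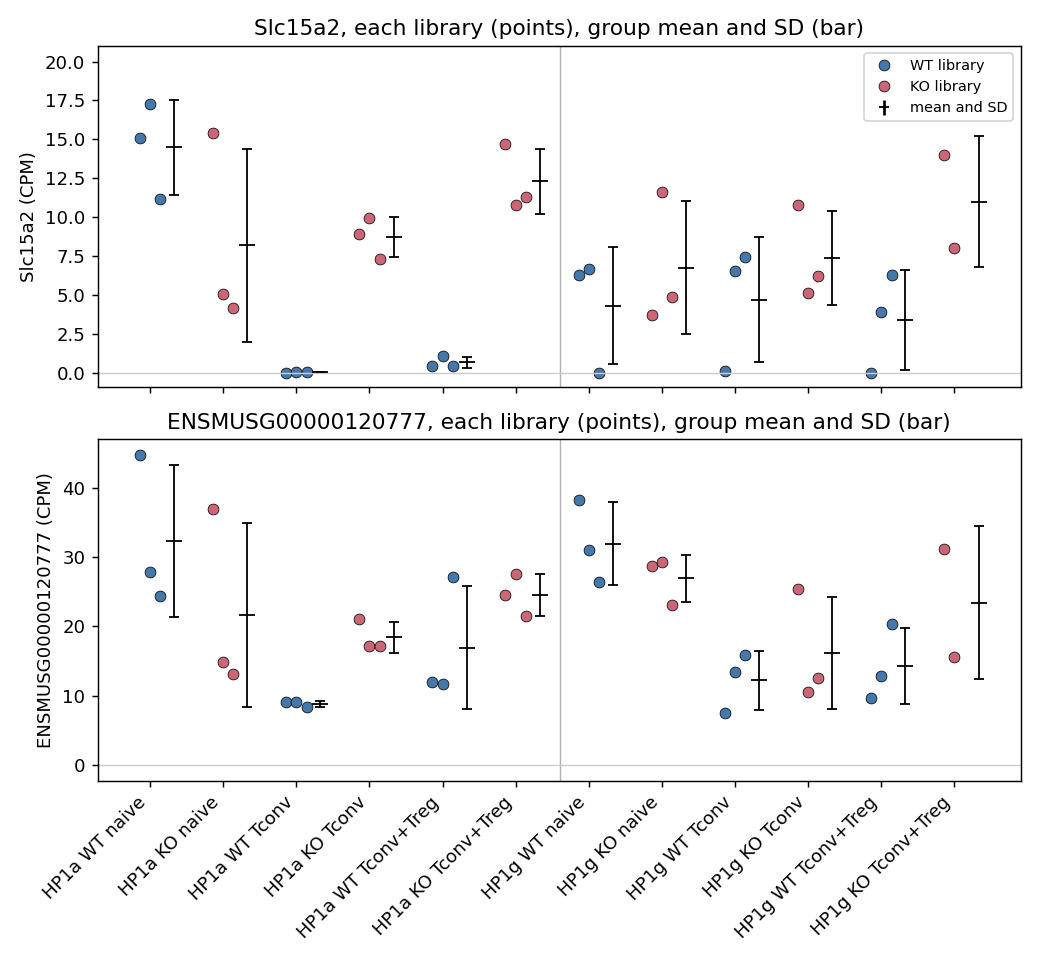
Level in CPM (vertical axis) of Slc15a2 (top) and ENSMUSG00000120777 (bottom) in each of the 35 libraries, by group; points are libraries, blue for WT and red for KO, and bars give the group mean and SD. Slc15a2 is near 0 in the 6 grafted HP1a WT libraries and in 1 library of each HP1g WT group, whereas the non-coding gene is above 7 CPM throughout.

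In naive cells of the HP1a line, Slc15a2 measured 15.1, 17.3 and 11.2 CPM in WT and 15.4, 5.09 and 4.20 CPM in KO libraries. KO replicate 1 lay among the WT values, while the other two were below all of them. The difference did not pass the test (log2 fold change -0.81 with an SE of 0.507, adjusted p = 1 and unadjusted p = 0.153 by edgeR's quasi-likelihood test). Without KO replicate 1 the log2 fold change was -1.67, also uncalled. ENSMUSG00000120777 measured 44.7, 27.8 and 24.4 CPM in WT and 36.9, 14.8 and 13.1 CPM in KO libraries, again with KO replicate 1 among the WT values and the other two below them. Its log2 fold change was -0.57 (SE 0.453, edgeR adjusted p = 1). Calls required an adjusted p under 0.05 together with an absolute log2 fold change above 1. In this comparison edgeR called 0 of 15549 genes (0%), with 291 at an unadjusted p under 0.05; 12 were called with the replicate number as a block and 15 by DESeq2.

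After grafting, Slc15a2 was nearly undetectable in HP1a WT Tconv, with 1, 2 and 2 counts (0.0273, 0.0423 and 0.0544 CPM). The HP1a KO Tconv held 375, 428 and 463 counts (8.93, 9.93 and 7.34 CPM). Summed over the libraries and scaled to their sizes, KO cells had 206 times the level of WT cells (95% exact conditional interval 88.1 to 636, which covers counting error only). This contrast chose the gene and was not tested. The mean of KO Tconv was 8.74 ± 1.3 CPM and that of KO naive cells 8.21 ± 6.20 CPM (SD, n = 3), whereas WT Tconv, without overlap as for 57.7% of genes, stood at 0.00289 of the level in WT naive cells (interval 0.000939 to 0.00676). ENSMUSG00000120777 was at 9.06, 9.10 and 8.37 CPM in WT and 21.1, 17.1 and 17.1 CPM in KO Tconv, a fitted log2 difference of 1.07 without overlap between the groups. For background, 0.103% of all genes were called in this comparison, and in 15.3% the groups did not overlap.

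With Treg, Slc15a2 was detected at a low level in HP1a WT cells, at 0.481, 1.10 and 0.467 CPM (25, 51 and 18 counts). HP1a KO TconvTreg libraries held 14.7, 10.8 and 11.3 CPM, 17.9 times as much (interval 14.5 to 22.3). Between Tconv and TconvTreg, the WT level was 16.6 times higher with Treg (interval 6.86 to 52.2, from 94 against 5 counts) and the KO level 1.44 times higher (1.34 to 1.55). These intervals cover counting error only, not the spread between libraries, and the contrasts were not tested. In both genotypes all TconvTreg values lay above all Tconv values, and the groups did not overlap for 34.8% of all genes in WT and 22.7% in KO cells. ENSMUSG00000120777 measured 12, 11.7 and 27.1 CPM in WT and 24.5, 27.5 and 21.5 CPM in KO cells with Treg. Through WT replicate 3 the groups overlapped, and without it the fitted log2 difference was 1.04 instead of 0.51. Of all genes, 0.123% were called between KO and WT with Treg, where the groups of 21.5% did not overlap, and 5.96% of WT and 0.44% of KO genes were called between TconvTreg and Tconv.

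Marker sums of several other cell types differed between these HP1a groups as well, while few single markers were called between KO and WT. In Tconv, 0 of 10 tested macrophage, 0 of 2 neutrophil and 0 of 4 erythroid markers were called, against 0.103% of all genes. With Treg, 0 of 10, 2 of 8 and 0 of 5 were called, against 0.123% of all genes. The 10 macrophage and monocyte markers summed to 8.05 to 9.85 CPM in WT Tconv, 16.3 to 245 in KO Tconv, 31.2 to 50.8 in WT TconvTreg and 54.7 to 371 in KO TconvTreg libraries. The 10 neutrophil markers summed to 0.109 to 0.273, 1.79 to 67.9, 1.58 to 40.1 and 262 to 463 CPM in the same order, with Ltf, Elane, Ly6g, Chil3 and Retnlg at 0 counts in WT Tconv. The 6 erythroid markers summed to 1.91 to 3.21 CPM in WT Tconv, 23.6 to 688 in KO Tconv, 2.41 to 42.9 in WT TconvTreg and 102 to 625 CPM in KO TconvTreg. The 5 Treg markers summed to 355 to 387, 330 to 399, 705 to 942 and 308 to 493 CPM in that order, so that WT cells with Treg lay above the other 3 groups. In Tconv, WT and KO overlapped in the sums of dendritic cell (15.4 to 22.3 and 8.28 to 33.4 CPM), B cell (2.35 to 3.22 and 2.48 to 5.98) and CD8 T or NK cell markers (7.9 to 13.8 and 10.8 to 17). Itgax made up most of the dendritic cell sums (mean 15.7 CPM in WT, 12.4 in KO). Flt3, Clec9a, Siglech and Cd209a were at 0 counts in WT, with means of 1.34, 0.0899, 4.74 and 0.568 CPM in KO. Of 3 tested dendritic cell markers, 0 were called. Of 3 tested CD8 T or NK cell markers, 1 was called higher in KO, against 0.103% of all genes. Cd8a measured 0.0544 to 0.136 CPM in WT and 1.31 to 1.63 CPM in KO. With Treg the dendritic cell and B cell sums overlapped again, while CD8 T or NK cell markers summed to 13 to 27.5 CPM in WT and 7.92 to 11.8 in KO. KO Tconv replicate 2 had the lowest macrophage, neutrophil and erythroid sums of its group (16.3, 1.79 and 23.6 CPM) and the highest Slc15a2 level of its group, 9.93 CPM. KO TconvTreg replicate 2 also had the lowest of these sums in its group (54.7, 262 and 102 CPM), but the lowest Slc15a2 level, 10.8 CPM. In HP1a WT naive libraries the macrophage markers summed to 10.8 to 14.6 CPM at a Slc15a2 level of 11.2 to 17.3 CPM. The part of other cells in the Slc15a2 difference was not tested. As these are bulk samples, a change in the number of expressing cells and a change in RNA per cell cannot be told apart.

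In the HP1g line, Slc15a2 was expressed in WT cells of all 3 conditions, but with 1 library near 0 in each. Naive WT libraries held 6.29, 6.71 and 0 CPM, the last being 0 counts in replicate 3, which allows up to 0.079 CPM. Naive KO libraries held 3.74, 11.6 and 4.91 CPM. The groups overlapped, and the log2 fold change of 0.65 (SE 1.07) did not pass (edgeR adjusted p = 0.799). It was 0.07 without WT replicate 3 and -0.03 without KO replicate 2. Only 0.00669% of genes, a single one, were called in that comparison.

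HP1g WT Tconv held 0.141, 6.58 and 7.44 CPM of Slc15a2, where replicate 1 had 7 counts. HP1g KO Tconv held 10.8, 5.16 and 6.22 CPM. The values of both genotypes overlapped apart from the low WT library. The log2 fold change was 0.66 (SE 1.10, edgeR adjusted p = 0.926), and 0.08 without WT replicate 1. In this comparison 7 genes (0.0437%) were called, and 74 with the replicate number as a block, with which Slc15a2 remained uncalled (1.10, adjusted p = 0.894). The low library was rich in transcripts of other cells, with marker sums of 78.2 CPM for macrophages, 615 CPM for neutrophils and 4480 CPM for erythroid cells. KO Tconv replicate 1, with the highest Slc15a2 level of its group, held 149 CPM of neutrophil and 3121 CPM of erythroid markers. Its macrophage sum, 31.8 CPM, was the lowest of its group. In the naive WT library at 0 counts the macrophage, neutrophil and erythroid sums were 13.9, 0.29 and 43.6 CPM. These were below the sums of all grafted HP1g libraries in use, though the highest of that library's group. The part of other cells in these levels was not tested.

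With Treg, HP1g WT libraries held 0, 3.95 and 6.28 CPM and the HP1g KO libraries 14 and 8.05 CPM of Slc15a2. Both KO values lay above the 3 WT values, as was the case, in either direction, for 29.4% of all genes. The log2 fold change of 1.69 had an SE of 1.46 and did not pass (edgeR adjusted p = 0.735). Leaving out 1 library gave 1.11 (without WT replicate 1, the library at 0 counts) to 2.48 (without WT replicate 3), and the replicate block, on 2 pairs, gave 3.78 (edgeR adjusted p = 0.627). The neutrophil and erythroid markers summed to 176 and 3104 CPM in the WT library at 0 counts, and to 350 and 5445 CPM in KO replicate 1, the library with the most Slc15a2. Macrophage markers summed to 34.8 CPM in that WT library, the lowest of its group. They summed to 77.7 CPM in KO replicate 1, below the 89.7 CPM of KO replicate 2. The part of other cells was not tested here either. In this comparison edgeR called 0 of 17177 genes (0%), with 2028 at an unadjusted p under 0.05 and 605 called by DESeq2. With the left-out KO library included, at 22 counts, the log2 fold change was 1.22.

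Relative to its mean, ENSMUSG00000120777 varied less than Slc15a2 in the HP1g WT groups and in naive KO cells, but more in KO Tconv (16.2 ± 8.05 against 7.39 ± 2.99 CPM, SD, n = 3) and KO TconvTreg (23.4 ± 11 against 11 ± 4.19 CPM, SD, n = 2). Naive HP1g cells held 38.2, 31 and 26.4 CPM in WT and 28.7, 29.2 and 23 CPM in KO libraries (log2 fold change -0.22, SE 0.185, edgeR adjusted p = 0.644). Tconv held 7.57, 13.4 and 15.8 CPM in WT and 25.4, 10.5 and 12.6 CPM in KO libraries (0.42, SE 0.402, edgeR adjusted p = 0.849). TconvTreg held 9.61, 12.8 and 20.3 CPM in WT and 31.2 and 15.6 CPM in KO libraries (0.72, SE 0.409, edgeR adjusted p = 0.573). Genotypes overlapped in each condition. The lowest level of each grafted WT group was in replicate 1, where Slc15a2 was also lowest.

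**Figure D3:**
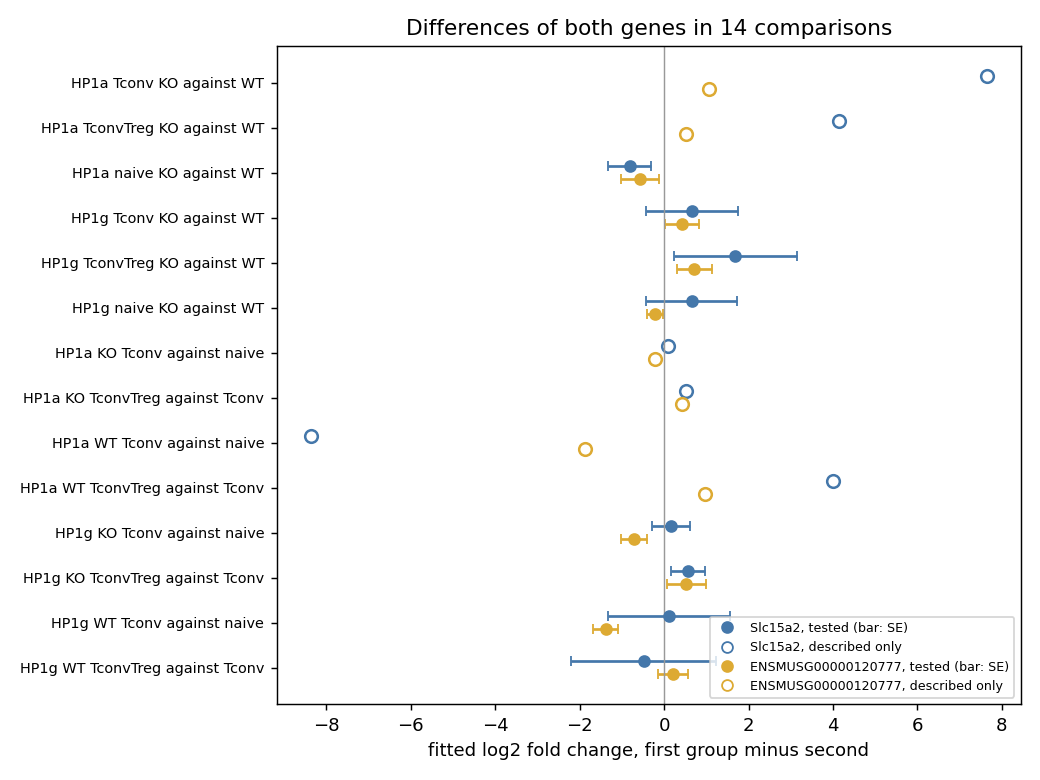
Fitted log2 fold change (horizontal axis, first group minus second) of both genes in 14 comparisons; filled points with SE bars were tested, and open points describe comparisons used in choosing the genes. The 2 described HP1a differences of Slc15a2 between KO and WT grafted cells are 7.64 and 4.14. The tested HP1g values are 0.66 and 1.69, with wide SE bars. The lines were not tested against each other.

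The level of the non-coding gene fell between naive cells and Tconv of HP1g WT mice, while the difference in Slc15a2 was not called. ENSMUSG00000120777 dropped from 31.9 ± 5.95 to 12.2 ± 4.22 CPM (SD, n = 3), lower in 3 of 3 Tconv libraries (log2 fold change -1.38, SE 0.293, edgeR adjusted p = 0.00895). Leaving out any library kept this call, with adjusted p between 0.013 and 0.0313. The comparison called 23.5% of all genes, 8.55% as lower, and the groups of 51.9% of genes did not overlap. Slc15a2 averaged 4.33 ± 3.76 CPM in naive and 4.72 ± 3.99 CPM in Tconv libraries of these mice (log2 fold change 0.12, SE 1.44, edgeR adjusted p = 0.96).

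In HP1g KO cells, ENSMUSG00000120777 measured 26.9 ± 3.43 CPM in naive and 16.2 ± 8.05 CPM in Tconv libraries, which was not called (log2 fold change -0.72, SE 0.31, edgeR adjusted p = 0.104). Tconv replicate 1, at 25.4 CPM, overlapped the naive values, and without it the log2 fold change was -1.19 (adjusted p = 1.05e-05). The change did not differ detectably between genotypes (interaction 0.69, SE 0.455, edgeR adjusted p = 0.636). Slc15a2 in KO cells went from 6.76 ± 4.26 to 7.39 ± 2.99 CPM (0.16, SE 0.45, edgeR adjusted p = 0.802), and its interaction was 0.08 (SE 1.79, edgeR adjusted p = 1). In this comparison 23.1% of all genes were called, 7.3% as lower, and the groups of 53.3% did not overlap. In the HP1a line, where these values are a description, the non-coding gene had a fitted log2 difference of -1.87 between WT Tconv and naive cells and of -0.22 between the KO groups. The WT groups did not overlap, the KO groups did, and 54.9% of all genes had no overlap between the KO groups.

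Treg made no difference to either gene in the HP1g line that passed the test. In WT cells the log2 fold change of Slc15a2 was -0.48 (SE 1.72, edgeR adjusted p = 0.978) and that of ENSMUSG00000120777 was 0.22 (SE 0.355, adjusted p = 0.945), where 2 genes (0.0126%) were called. In KO cells the values were 0.57 (SE 0.405, adjusted p = 0.797) and 0.53 (SE 0.463, adjusted p = 0.842), and edgeR called 0 of 16991 genes (0%), with 1294 at an unadjusted p under 0.05 and 264 called by DESeq2. The interaction of genotype and Treg was 1.02 (SE 2.02) for Slc15a2 and 0.29 (SE 0.644) for the non-coding gene, both with an edgeR adjusted p of 1.

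Ranked by mean level, Slc15a2 was highest in HP1a WT naive cells (14.5 CPM), HP1a KO TconvTreg (12.3), HP1g KO TconvTreg (11) and HP1a KO Tconv (8.74), and lowest in HP1a WT TconvTreg (0.683) and HP1a WT Tconv (0.0413). HP1a KO naive cells (8.21), the remaining KO groups of the HP1g line (7.39 in Tconv, 6.76 in naive cells) and its WT groups (4.72, 4.33 and 3.41 in Tconv, naive cells and TconvTreg) lay between. Each group overlapped its neighbour in this order, apart from the last 2, whose libraries did not.

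The levels of both genes were related to a limited degree. Over the 35 libraries, the Pearson correlation of their log2 CPM was 0.59 (Spearman 0.66); it was 0.72 over the 23 grafted and 0.18 over the 12 naive libraries. These points share libraries and scaling, fall into libraries with and without Slc15a2, and come from genes that overlap, so the values are descriptions. In 26 libraries with at least 100 counts of Slc15a2, the non-coding gene stood 3.24 to 15.4 times as high per kb.

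**Figure D4:**
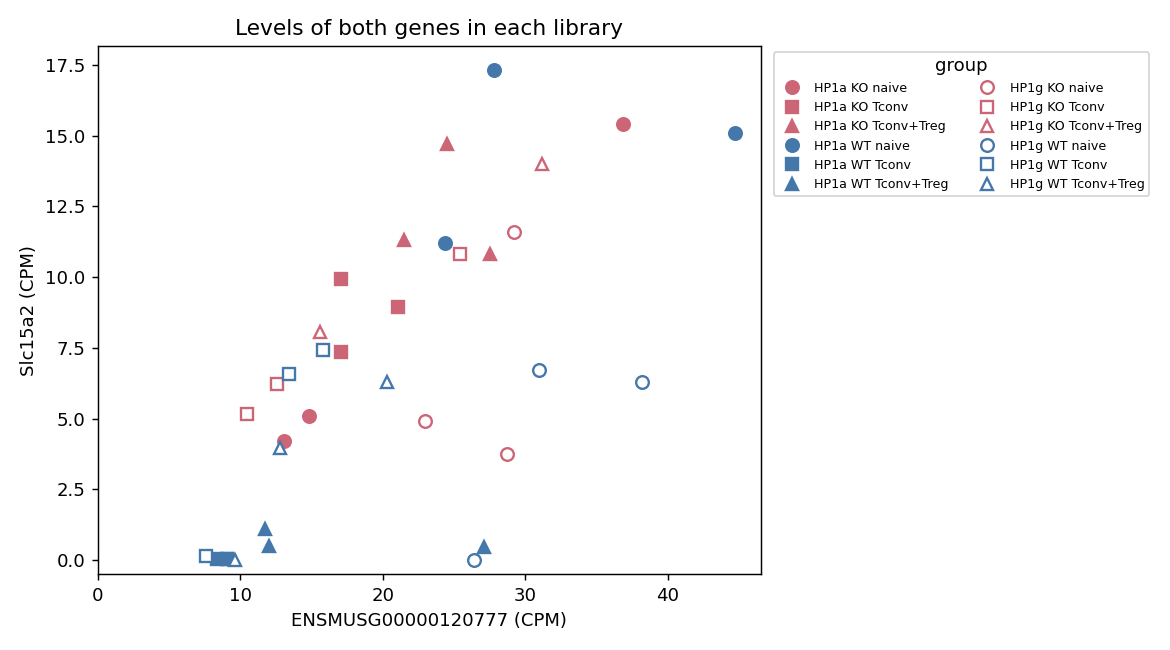
Slc15a2 against ENSMUSG00000120777 level in each of the 35 libraries (both axes in CPM); blue marks WT and red KO, filled marks the HP1a and open marks the HP1g line, and shape gives the condition. Libraries with Slc15a2 near 0 lie along the bottom, at 7.57 to 27.1 CPM of the non-coding gene.

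Among 10689 protein-coding genes averaging 1 CPM or more, the 10 whose log2 CPM correlated best with Slc15a2 reached only 0.49 to 0.59. Those reported here were Tfpi (0.59), an inhibitor of tissue factor in coagulation, Ly6d (0.58), a surface protein of early B cells, Pgap1 (0.58), an enzyme that trims GPI anchors, Sdc3 (0.52), a heparan sulfate proteoglycan, Nfam1 (0.52), an activating receptor of leukocytes, Jade3 (0.51), a subunit of histone acetyltransferase complexes, Rab32 (0.50), a small GTPase, Sv2a (0.49), a synaptic vesicle protein, and Vmn2r97 (0.49), a vomeronasal receptor gene. None of these lies on chromosome 16. Tfpi ranged from 0.783 to 9.32 CPM and Pgap1 from 6.61 to 26 CPM over the 35 libraries, while Ly6d and Nfam1 were at 0 in at least 1 library. Over naive libraries alone, the correlations of the named genes ran from -0.16 to 0.36.

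The other family members followed different courses. Slc15a4, the lysosomal partner of TASL, had group means between 20.1 and 26.9 CPM and was called in 0 of the 14 comparisons. Slc15a3 was nearly absent from naive cells (0.0263 to 0.0878 CPM as group means) and present in all grafted groups (3.77 to 12.8 CPM). It was called higher in Tconv than in naive cells in WT and KO of both lines, for example 12.8 ± 2.31 against 0.0773 ± 0.0763 CPM in HP1a WT (SD, n = 3, edgeR adjusted p = 1.45e-05). Slc15a1 fell in the same 4 comparisons, from 0.946 ± 0.139 to 0.0595 ± 0.0203 CPM in HP1a WT (edgeR adjusted p = 0.000315). Among all genes, 12.4% to 15.7% were called higher and 7.24% to 10.2% lower in these 4 comparisons. Slc15a5 was at 0 counts in 11 of the 12 groups. Between KO and WT, 2 of the 4 other family members were tested in each of the 6 comparisons. Of these, 0 were called, against 0% to 0.123% of all genes. In HP1a Tconv, Slc15a3 measured 12.8 ± 2.31 CPM in WT and 11.2 ± 5.41 CPM in KO libraries (log2 fold change -0.18, SE 0.38, edgeR adjusted p = 0.914), and Slc15a4 20.8 ± 2.08 and 22.4 ± 3.53 CPM (0.12, SE 0.14, adjusted p = 0.836).

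Scaled to transcript length, HP1a WT naive cells held more Slc15a2 (3.58 CPM per kb) than Slc15a4 (2.73) or Slc15a3 (0.0328). In HP1a WT Tconv the order was Slc15a3 (5.42), Slc15a4 (2.52) and Slc15a2 (0.0102). HP1a KO Tconv kept Slc15a2 at 2.15 CPM per kb, next to 4.76 for Slc15a3 and 2.72 for Slc15a4.

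**Figure D5:**
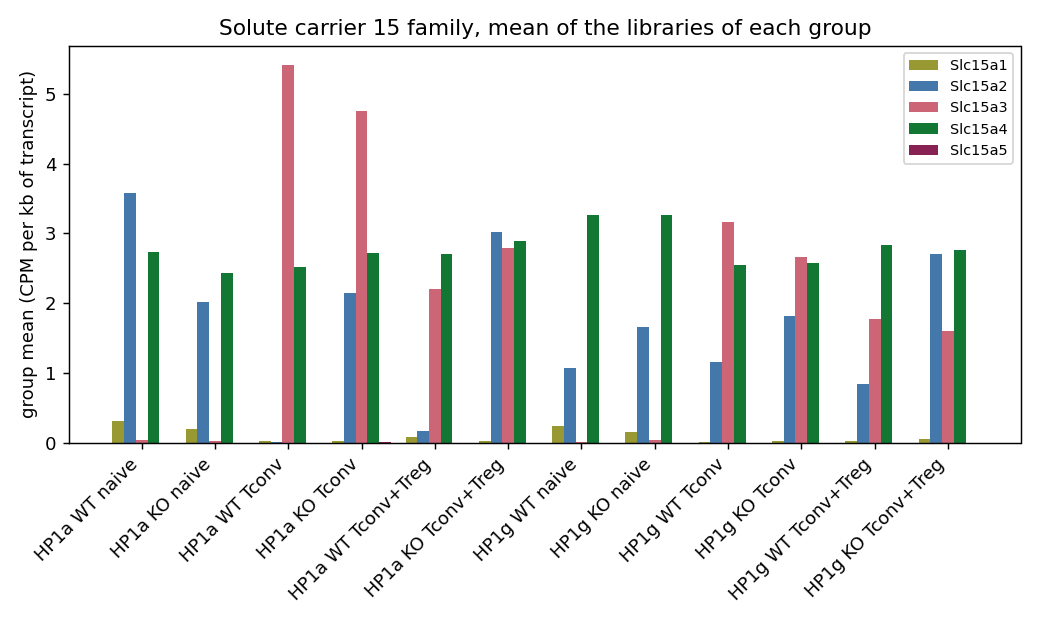
Group mean of the 5 solute carrier 15 genes in CPM per kb of transcript (vertical axis, bars from 0), by group. Slc15a4 is similar throughout, Slc15a3 is below 0.04 CPM per kb in naive groups, and Slc15a2 is close to 0 in HP1a WT Tconv.

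Genes of the peptide-sensing pathway were compared as a list of 14. Of those tested, 0 were called between KO and WT in any of the 6 comparisons, against 0% to 0.123% of all genes. Between naive cells and Tconv, 3 to 5 were called higher and 1 or 2 lower of 11 tested in each line and genotype. As background, 12.9% of all genes were called higher and 10.2% lower in HP1a WT, 12.4% and 7.24% of a total of 19.7% in HP1a KO, 15% and 8.55% in HP1g WT, and 15.7% and 7.3% in HP1g KO cells. Tasl rose from 0.0585 ± 0.0544 to 27 ± 5.75 CPM and Irf5 from 1.89 ± 0.321 to 26.7 ± 1.19 CPM in HP1a WT cells (SD, n = 3, edgeR adjusted p = 2.17e-06 and 1.79e-06), while Card9 fell from 1.44 ± 0.27 to 0.328 ± 0.197 CPM (edgeR adjusted p = 0.00668). Pdzk1, a scaffold that binds PEPT2, rose from 0.0502 ± 0.0869 to 6.66 ± 3.71 CPM (edgeR adjusted p = 0.00117). Nod1 was called higher in 3 of these 4 comparisons, Nod2 in 2, and Tlr7 was lower in HP1g KO cells. With Treg, Tasl was lower than without in HP1a WT cells (4.36 ± 1.54 against 27 ± 5.75 CPM, edgeR adjusted p = 0.00514). The median log2 fold change of the list between HP1a WT Tconv and naive cells was 0.34, against -0.04 over all genes tested.

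Of 15 peptidases, which make and break down short peptides, 0 were called between KO and WT in any condition, where at most 0.123% of all genes were called. Between Tconv and naive cells, 2 or 3 of 14 were called higher and 0 lower, next to 12.4% to 15.7% higher and 7.24% to 10.2% lower among all genes. These were Ggt1 in all 4 comparisons, Rnpep in the 2 of the HP1a line, Dpp4 in the 2 of the HP1g line and Blmh in HP1g KO cells. Ggt1, a gamma-glutamyl transferase of glutathione breakdown, rose from 9.19 ± 0.389 to 157 ± 58.7 CPM in HP1a WT cells and stood at 11.8 ± 4.52 CPM with Treg (edgeR adjusted p = 1.55e-05 and 0.00234).

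The genes around Slc15a2 were counted by genotype too. Within 500 kb lie 16 protein-coding genes, of which 6 to 9 passed the filter on low counts, and 0 were called between KO and WT in any of the 6 comparisons, against 0% to 0.123% of all genes. Ildr1, the nearest gene on the downstream side of Slc15a2 at 20120 bases, rose on grafting from 3.11 ± 1.52 to 27.9 ± 8 CPM in HP1a WT cells, in which Slc15a2 was near 0 (SD, n = 3, edgeR adjusted p = 0.000659). It was at 22.5 ± 6.31 CPM in HP1a KO Tconv. Eaf2, 7912 bases from the other end, stayed at or below 0.545 CPM in each group mean. Cd86, which encodes a costimulatory ligand, was called higher in Tconv than in naive cells in 3 of 4 comparisons, Polq in 1, and Iqcb1 lower in both genotypes of the HP1a line. Of all genes, 19.7% to 23.5% were called in these 4 comparisons. Stfa3 was called in HP1a WT cells with Treg, at 4.96 ± 2.40 CPM against 0 counts without.

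The genes that share sequence with ENSMUSG00000120777 were examined in the same way. The list held 30 genes with at least 500 windows in common, and Gm48161 (1386 windows) and Zfp69 (1355) shared most. Of the 20 to 22 tested between KO and WT, 0 were called in any condition, against 0% to 0.123% of all genes. Their median log2 fold change was 0.01 in HP1a Tconv, where the fitted value of the non-coding gene was 1.07. Between HP1g WT Tconv and naive cells, 2 were called higher and 1 lower of 21 (15% and 8.55% among all genes), with a median of 0.11, against -1.38 for ENSMUSG00000120777.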

How the data were processed

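RNA-seq libraries were made by SMART-Seq amplification and read as paired ends of 150 bases. Reads were trimmed by the authors (Trim Galore, Cutadapt), mapped with STAR to the mouse genome GRCm39 under an Ensembl annotation, and assigned to genes with Salmon. The table deposited by the authors holds estimated counts per gene, not scaled to library size. STAR, Salmon and GRCm39 are also named in the submitters' processing notes.

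Columns were matched to samples by title. Estimated counts were rounded, scaled by TMM, filtered with filterByExpr and tested with edgeR 4.0.16 (glmQLFit with robust estimation, glmQLFTest) in R 4.3.3 on the libraries of the compared groups, with Benjamini-Hochberg adjustment over all genes tested. The SE given with edgeR results is the absolute log2 fold change divided by the square root of the quasi-likelihood F statistic. CPM values used TMM over 35 libraries. The labels do not say whether replicates came from separate animals, so p-values measure the spread between these libraries. Across 34 pairs of replicates, none was as alike as sampling noise (lowest chi-square per gene 8.37). Data were simulated for HP1g Tconv over 15808 genes, with the same spread for every gene and changes only in genes above a set level. There the fit recovered 100% of 200 genes changed by a log2 fold change of 2. Of its calls, 1.5% were false. Recovery at the unequal spread of the measured genes was not tested. This includes such a change in Slc15a2, whose SE between KO and WT was 1.1 in HP1g Tconv.

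The members, lists and the rule for naming genes were chosen with earlier results of these data known. Lists were counted in full, and members of the family, called genes, the nearest gene on each side and the 10 genes best correlated with Slc15a2 were named. Of these, 1 gene is not reported here. The functions stated for genes are background. Transcript lengths and positions come from GENCODE release 39 (canonical transcripts), which lacks 731 genes of the count table.

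To see whether replicate numbers pair libraries, deviations from the group mean were correlated between libraries of the same number, and an r above 0.1 for every number, over at least 3 numbers, was taken as pairing. Naive HP1a cells (KO against WT, 0.261 to 0.62) and HP1g Tconv (0.113 to 0.414) met this limit. DESeq2 1.42.0, RLE size factors, no filter, all libraries of a line in 1 fit, the replicate block, both genes summed into 1 feature, the left-out library included and each library left out were alternatives. ATAC-seq samples were not analysed here.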

Additional observations from a re-analysis of the deposited data

Results flagged for a closer look

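The library left out for its read quality, HP1g KO TconvTreg replicate 3, held 24.3 CPM of ENSMUSG00000120777. This lay above the 3 HP1g WT TconvTreg libraries (9.61 to 20.3 CPM) and between the 2 KO libraries in use (31.2 and 15.6 CPM). The same library held 22 counts of Slc15a2 (1.41 CPM), which is below the lowest KO library in use (3.74 CPM) and within the range of the WT libraries. With this library in the fit, the KO difference with Treg was 1.22 for Slc15a2 (edgeR adjusted p = 0.889) and 0.85 for the non-coding gene (adjusted p = 0.672).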

How the results depend on the processing

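The only tested difference of the 2 genes that was called, the lower level of ENSMUSG00000120777 in HP1g WT Tconv than in naive cells, was called under all 11 alternatives (log2 fold change -1.61 to -1.12, edgeR or DESeq2 adjusted p 7.96e-05 to 0.0313). Of 108 other settings tried on the 20 tested results, 104 kept direction and side of the threshold, and 78 of the 92 fits that left out a library did so. With the replicate number as a block the called difference was -1.42 (adjusted p = 0.011) and the call of neither gene changed in another comparison, for example -1.02 for Slc15a2 in naive HP1a cells (adjusted p = 0.667). Counting both genes as 1 feature turned the sign of uncalled Slc15a2 differences in the HP1g line, to -0.08 for naive KO against WT, -1.10 and -0.50 for Tconv against naive cells in WT and KO, and 0.05 for the Treg effect in WT. The same step, which adds the larger counts of the non-coding gene by construction, gave 1.62 and 1.04 for KO against WT in HP1a Tconv and TconvTreg, -2.40 for HP1a WT Tconv against naive cells and 1.03 for the Treg effect in HP1a WT.

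Leaving out 1 library moved Slc15a2 between -0.03 and 1.06 for KO against WT in naive HP1g cells, -0.48 and 0.69 for HP1g WT Tconv against naive cells, -0.20 and 0.76 for the KO, -1.27 and 0.11 for the Treg effect in HP1g WT, 3.94 and 4.66 for KO against WT in HP1a TconvTreg, and -0.24 and 0.91 for HP1a KO Tconv against naive cells. ENSMUSG00000120777 moved between -0.07 and 0.65 for KO against WT in HP1g Tconv, -1.19 and -0.49 for HP1g KO Tconv against naive cells, -0.13 and 0.45 for the Treg effect in HP1g WT, -0.05 and 1 in HP1g KO, 0.30 and 1.04 for KO against WT in HP1a TconvTreg, -0.50 and 0.41 for HP1a KO Tconv against naive cells, and 0.45 and 1.17 for the Treg effect in HP1a WT. Of the 10 genes best correlated with Slc15a2, 3 remained with Spearman correlation, 3 over the 12 group means and 6 above a mean of 5 CPM. The cause of these shifts was not tested.

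Counts of called genes between KO and WT depended on the tool. DESeq2 called 15, 38, 258 and 605 genes in naive HP1a, naive HP1g, HP1g Tconv and HP1g TconvTreg cells, where edgeR called 0, 1, 7 and 0 and the replicate block gave 12, 0, 74 and 30. In HP1a Tconv and TconvTreg these numbers were 201 and 707 for DESeq2, 16 and 20 for edgeR, and 30 and 5 with the block. For the Treg effect, DESeq2 called 1754 and 429 genes in HP1a WT and KO and 52 and 264 in HP1g WT and KO, where edgeR called 932, 71, 2 and 0 and the block 781, 79, 0 and 0. Libraries at 0 counts of Slc15a2 limit its level to 3 counts, at most 0.079 CPM, for counting error only.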
